A study of Homo sapiens with 9 samples.

Results

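The histone genes of A375R cells were described, both the replication-dependent genes that lie in clusters and the variants that lie elsewhere. They were chosen by name, as protein-coding genes whose symbol starts with H1-, H2A, H2B, H3C, H3-, H4C or H4- and that had at least 1 library above 0. Of 93 protein-coding genes matched by name, 25 were listed at 0 in every library, which left 68 of the 30304 genes with a value above 0 among 62710 listed. A gene was counted as clustered where its symbol ends in C and a number, or was H1-1 to H1-6, which gave 57 clustered genes and 11 other variants. A375R is a line of human A375 melanoma cells resistant to PLX4032, a vemurafenib analog that its culture medium contains. The cells received 10 µM R4VPL3-1, a PROTAC-like molecule that links a binder of the ubiquitin ligase RNF4 to a recruiter of the ubiquitin ligase VHL, or 10 µM VHL-r, the recruiter alone, each for 2 h, or DMSO. Each group had 3 libraries, stated to be independent biological repeats of this 1 line. The control libraries are labelled wild type, and the methods of the study give DMSO as their treatment.

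Histones are the proteins around which DNA is wound, H2A, H2B, H3 and H4 in the core of the nucleosome and H1 on the linker between nucleosomes. The clustered genes supply most histone protein during S phase, and their usual mRNA has no intron and no poly(A) tail but ends just after a conserved stem-loop. That stem-loop is bound by SLBP, the protein that directs the cut and later the export, translation and decay of the mRNA. Variant genes such as H2AZ1, H3-3A and H3-3B are expressed throughout the cell cycle from spliced or longer mRNAs with a poly(A) tail. The libraries were made from RNA selected for poly(A), so the usual mRNA of a clustered gene is largely left out and the values below are of RNA that passed this selection.

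The stem-loop is shown because it marks the genes whose usual mRNA ends without a tail. It was searched as a 6-base arm starting with GG, a 4-base loop starting with TT and the reverse complement of the arm, within 120 bases after the stop codon of the GENCODE 44 models on GRCh38. It was found in 53 of the 57 clustered genes and in 2 of the 11 variants, H2AX and H3-7, against 69 of 19950 protein-coding genes, or 0.346%. The clustered genes without a match were H2AC11, H2AC15, H2BC10 and H3C6. In these lines, read 5′ to 3′ on the coding strand, the loop is in capitals. The form printed for H2AC6 was the commonest, shared by 31 genes, among them H2AC25, H2BC26 and H3-7.
H2AC6, chr6:26124669-26124684, plus strand: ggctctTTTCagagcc
H2BC11, chr6:27132321-27132336, minus strand: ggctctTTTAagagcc
H4C8, chr6:26285131-26285146, minus strand: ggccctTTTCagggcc
H2AX, chr11:119094898-119094913, minus strand: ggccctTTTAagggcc

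Promoters are shown for 3 genes that were called higher after R4VPL3-1, H2AC6, H2BC11 and H2BC26, and for H2BC12, a clustered gene of higher level per length that was not. Sequences of 300 bases, 250 before and 50 after the start, were taken from RefSeq on GRCh38.p14, where 62 of the 68 genes matched, 53 clustered and 9 variants. Capitals mark the TATA box, searched as TATAAA, the box where the factor NF-Y binds, searched as CCAAT, and the octamer bound by OCT1, searched as ATTTGCAT. Each was searched on both strands, so their reverse complements are in capitals too, and a TATA box can overlap its own reverse complement by 4 bases.
H2AC6, chr6:26123922-26124221, plus strand: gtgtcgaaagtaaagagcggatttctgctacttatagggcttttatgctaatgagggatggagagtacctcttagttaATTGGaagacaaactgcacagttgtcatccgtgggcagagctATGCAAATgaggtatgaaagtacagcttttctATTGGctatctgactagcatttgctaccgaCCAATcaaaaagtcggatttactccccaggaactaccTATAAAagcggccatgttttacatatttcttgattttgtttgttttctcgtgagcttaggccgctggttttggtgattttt
H2BC11, chr6:27132746-27133045, minus strand: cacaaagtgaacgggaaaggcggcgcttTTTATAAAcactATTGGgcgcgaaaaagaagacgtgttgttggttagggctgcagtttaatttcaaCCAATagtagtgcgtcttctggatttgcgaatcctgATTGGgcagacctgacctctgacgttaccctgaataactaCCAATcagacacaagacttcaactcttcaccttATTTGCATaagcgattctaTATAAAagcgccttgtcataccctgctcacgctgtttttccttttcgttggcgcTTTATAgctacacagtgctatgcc
H2BC12, chr6:27146809-27147108, minus strand: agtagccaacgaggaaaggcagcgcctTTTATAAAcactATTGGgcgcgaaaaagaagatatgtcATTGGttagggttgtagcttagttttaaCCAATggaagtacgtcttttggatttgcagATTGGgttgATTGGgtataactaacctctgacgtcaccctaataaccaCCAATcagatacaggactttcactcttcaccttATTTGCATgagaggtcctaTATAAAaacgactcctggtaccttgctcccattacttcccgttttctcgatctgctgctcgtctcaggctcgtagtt
H2BC26, chr1:228457853-228458152, plus strand: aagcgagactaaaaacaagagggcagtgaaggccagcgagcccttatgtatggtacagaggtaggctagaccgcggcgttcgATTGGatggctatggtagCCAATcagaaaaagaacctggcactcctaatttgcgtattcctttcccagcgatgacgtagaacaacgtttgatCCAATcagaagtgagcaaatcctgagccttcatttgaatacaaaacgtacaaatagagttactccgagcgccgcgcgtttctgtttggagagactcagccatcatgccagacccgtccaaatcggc

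Over the 53 clustered promoters, the TATA box was present in 62.3%, CCAAT in 83.0% and the octamer in 39.6%, against 11.95%, 35.7% and 1.8% of all 27305 promoters in the table. The octamer was found in 8 of 11 clustered H2A and 13 of 17 clustered H2B promoters, and in none of the 8 H3, 11 H4 and 6 H1 promoters. CCAAT was in every clustered H2A, H2B, H3 and H1 promoter and in 2 of the 11 H4 promoters. The letters did not separate the genes by their response. Of the 8 clustered genes called higher in R4VPL3-1 against DMSO, 4 had the TATA box, 7 CCAAT and 5 the octamer, and of the 6 other tested clustered genes with a sequence, 4, 6 and 3 did. H2AC25 and H2BC26, which share a start region, held CCAAT alone, 3 times.

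Values are normalized read counts, the reads of a gene divided by a size factor of its library. Size factors lay between 0.9341 and 1.1012, and the reads recovered from the values summed to between 26435568 and 32085626 in a library. At this depth a normalized count of 10 is close to 10 reads, so counting error alone is large for most clustered genes. Of the melanoma markers in a fixed list of 9, SOX10, AXL, DCT, MITF, NGFR, S100B and PMEL were expressed and MLANA was listed at 0 in every library. TYR, the remaining marker, was above 0 in at least 1 library. The list summed to 32276 to 34172 normalized counts in DMSO, 23102 to 25341 in VHL-r and 20904 to 22706 in R4VPL3-1. SOX10 carried most of that difference, with group means of 17550, 10200 and 8405, while DCT, S100B and PMEL were not called in any comparison. Of 6 markers of other cells, ALB was listed at 0 and PTPRC and PECAM1 had group means under 10, while COL1A1 and KRT14 reached group means of 1228 and 346.8. KRT5 was the remaining marker. Of the 6, 3 averaged 10 or more over the 9 libraries, and 1 of these was called lower in R4VPL3-1 against DMSO. The part of these shifts in the histone values was not tested. In a culture like this, fewer cells of a kind and less RNA per cell cannot be told apart.

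Most of the histone signal came from the variants. Together they took 158.5 to 181.0 of every 100000 recovered reads over the 9 libraries, and all 57 clustered genes took 2.81 to 4.78. Per kilobase of exon, the variants had a median of 683.9 normalized reads and the clustered genes a median of 6.16. H2AZ1, the variant of H2A found beside gene starts, was highest at 5047 per kilobase, followed by H3-3B at 3049 and H2AX, the variant phosphorylated at DNA breaks, at 2885. Among the clustered genes H2BC12 stood highest at 379 per kilobase, then the linker histone gene H1-2 at 177, H2AC6 at 81.8 and H2AC25 at 75.4.

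The clustered genes were split by the transcripts annotated for them. A long form was taken as a transcript of more than 1 exon or an end over 150 bases after the stop codon, and 17 clustered genes had one. Of these 17, 12 averaged 10 or more over the 9 libraries, and of the 40 without a long form 3 did, H2BC12, H1-2 and H2BC8. Per kilobase of exon the gap was small, with medians of 7.07 and 4.57, since a long form adds exon bases. All 11 variants had a long form.

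**Figure D1:**
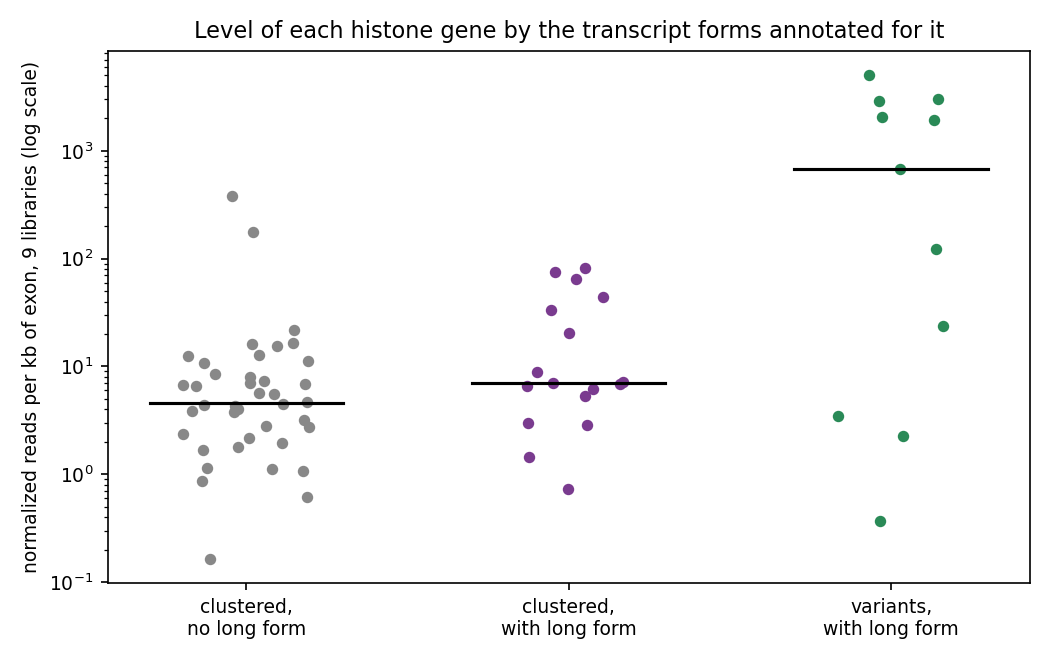
Each point is a histone gene, the vertical axis gives its mean over the 9 libraries in normalized reads per kilobase of annotated exon on a log scale, and lines are medians. The 2 clustered columns overlap, with medians of 4.57 and 7.07, and the variants have a median of 683.9.

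Differences were tested with limma on log2(normalized count + 1) over the 15230 genes averaging 10 or more, and a gene was called where the Benjamini-Hochberg adjusted p did not exceed 0.05. Fold changes are on that scale and understate those of low genes. Of the histone genes, 24 had such a mean, 15 clustered and 9 variants. H2BC18 reached this mean through the R4VPL3-1 libraries, having a mean of 8.45 in the other 6, and H2BC8 needed the libraries of both compounds, at 9.43 without VHL-r and 9.66 without R4VPL3-1. The counts over tested genes therefore describe the genes high enough to test, not all 57 clustered genes.

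R4VPL3-1 against VHL-r, at the same dose and time, asks what the full molecule did beyond its VHL-binding end. After R4VPL3-1, 4 of the 15 tested clustered genes were higher, the H2A genes H2AC6 and H2AC25 and the H2B genes H2BC11 and H2BC26, by 1.56-fold to 3.15-fold. None was lower, also at an unadjusted p under 0.05 and by edgeR and DESeq2. Among all genes tested, 1.14% were called higher and 0.729% lower. None of the 9 variants was called, and 0 passed an unadjusted p under 0.05 in either direction by limma, or an adjusted one by edgeR or DESeq2. The median difference was 0.58 on the log2 scale over the 15 clustered genes and -0.012 over the 9 variants, against -0.0056 over all genes tested. Without the minimum mean, the median over all 57 clustered genes was 0.051. The 4 genes are in the gene table of the study, which was drawn from these same libraries, so that table is not independent evidence.

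H2AC6, a clustered H2A gene on chromosome 6 (26124145 to 26139116, GRCh38), read 73.6, 96.4 and 109.5 normalized counts in DMSO, 117.1, 99.8 and 94.2 in VHL-r, and 229.7, 152.2 and 254.8 in R4VPL3-1. Every R4VPL3-1 library lay above all 6 others, while DMSO and VHL-r overlapped. The difference from VHL-r was 1.00 ± 0.18 on the log2 scale (SE, limma adjusted p = 0.00209).

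H2AC25 is a clustered H2A gene on chromosome 1 (228434777 to 228457873). Its normalized counts were 122.6, 116.1 and 123.7 in DMSO, 105.1, 112.4 and 131.1 in VHL-r, and 184.9, 180.1 and 178.8 in R4VPL3-1. The R4VPL3-1 libraries were close to each other and above the rest, and the difference from VHL-r was 0.64 ± 0.12 (SE, limma adjusted p = 0.00397).

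H2BC11 encodes an H2B on chromosome 6 (27125897 to 27132795). It had normalized counts of 24.5, 32.5 and 21.3 in DMSO, 25.02, 31.5 and 29.7 in VHL-r, and 113.0, 82.6 and 52.5 in R4VPL3-1. Although the R4VPL3-1 libraries spread widely, none overlapped another group, and the difference from VHL-r was 1.43 ± 0.26 (SE, limma adjusted p = 0.00209).

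H2BC26, an H2B gene next to H2AC25 on chromosome 1 (228458103 to 228463104), differed between all 3 groups. It read 2.72, 8.85 and 9.13 normalized counts in DMSO, 23.0, 14.7 and 20.48 in VHL-r, and 96.2, 61.7 and 40.7 in R4VPL3-1. No group overlapped another. The difference between the compounds was 1.66 ± 0.38 (SE, limma adjusted p = 0.0195). It was no longer called without R4VPL3-1 replicate 1 or 2, without VHL-r replicate 2 or 3, or with no minimum mean, where adjusted p reached 0.206.

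**Figure D2:**
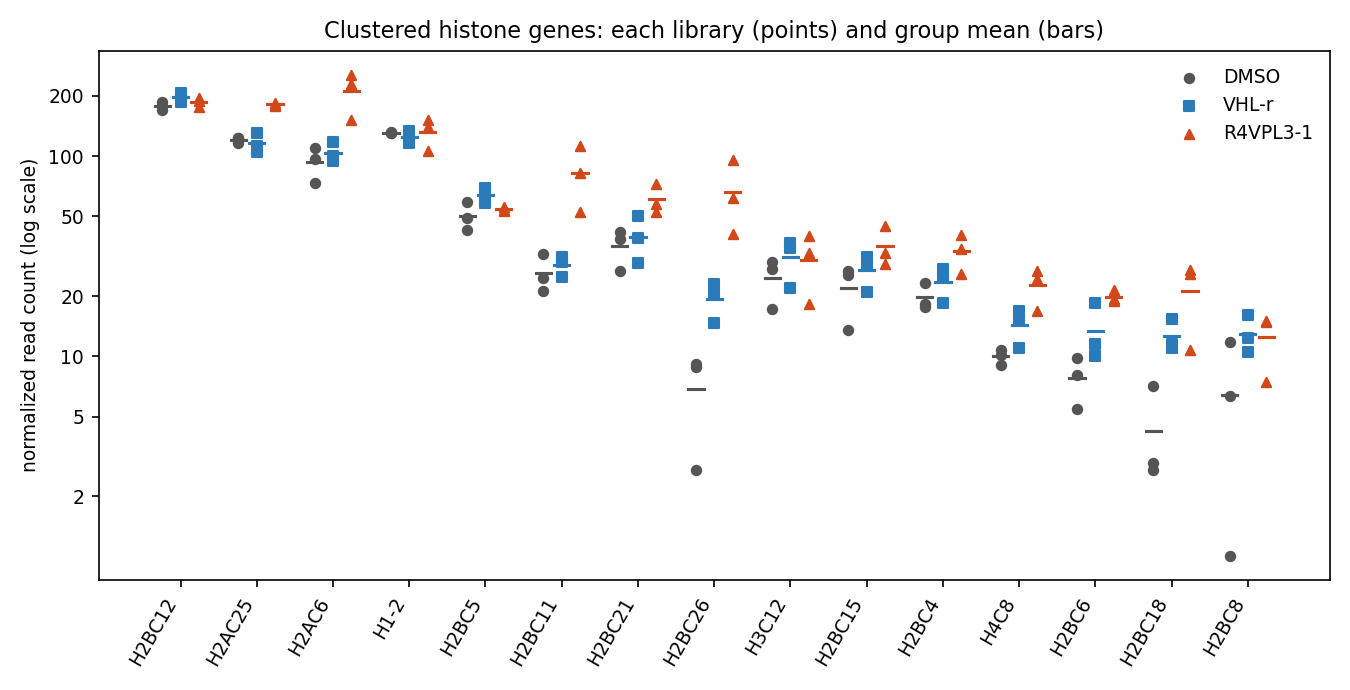
Normalized read counts of the 15 tested clustered genes on a log scale, with a point for each library, a bar at each group mean, and genes ordered by mean. The R4VPL3-1 triangles of H2AC6, H2AC25, H2BC11 and H2BC26 lie above all other points of their gene, and those of H2BC12 lie among them. For H1-2 the triangles lie at 105.5, 139.3 and 152.0, on both sides of all other points, which span 116.6 to 133.1.

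Of the other 11 tested clustered genes, H2BC21, H2BC6 and H4C8 also had R4VPL3-1 libraries above all VHL-r libraries without a call, at differences of 0.63, 0.58 and 0.61. In H2BC5 the separation went the other way, at 53.2 to 55.7 normalized counts in R4VPL3-1 and 58.0 to 69.3 in VHL-r, also without a call. The share of all genes tested whose groups separate was not counted, so these separations are not read as changes. H2BC12, the clustered gene of highest level per kilobase, with 22.5% of its windows shared with other transcripts, read 187.7, 195.0 and 176.7 normalized counts in R4VPL3-1 and 206.2, 187.0 and 199.7 in VHL-r. Its difference was -0.08, with a 95% interval of -0.30 to 0.14 that does not reach the sizes seen in the 4 called genes. For H1-2 the difference was 0.07 (95% interval -0.22 to 0.36), and for H2BC5 it was -0.22 (-0.60 to 0.15). H2BC8 and H3C12 were too variable to place, with intervals of -1.18 to 1.00 and -0.72 to 0.55.

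Against DMSO, R4VPL3-1 raised 8 of the 15 tested clustered genes and lowered none, where 13.1% of all genes tested were called higher and 11.8% lower. None was lower at an unadjusted p under 0.05 or by edgeR or DESeq2 either. The median difference over the 15 was 0.77 on the log2 scale, and 0.33 over all 57 with no minimum mean. By family the called genes were 2 of 2 tested H2A, 5 of 10 tested H2B, 1 of 1 tested H4, 0 of 1 tested H3 and 0 of 1 tested H1. Among the called H2B genes, H2BC18 was high enough to test only through its R4VPL3-1 libraries. All 8 were among the 12 tested genes with a long form, and the 3 without one, H2BC12, H1-2 and H2BC8, were not called. The differences of these 3 were 0.07, -0.0003 and 1.17. H2BC8 was too variable to place, with a 95% interval of 0.084 to 2.255 (limma adjusted p = 0.111). Its estimate is above those of the called H4C8, H2BC21 and H2AC25, at 1.08, 0.77 and 0.58. With 3 such genes, a response limited to genes with a long form is not shown.

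The change in H2BC26 was 3.14 ± 0.38 (SE, limma adjusted p = 2.04e-06), or 8.81-fold. Of the other genes called against VHL-r, H2BC11 stood at 1.58 (limma adjusted p = 8.33e-05), H2AC6 at 1.16 (4.34e-05) and H2AC25 at 0.58 (0.00128). H2BC18, an H2B gene in the chromosome 1 cluster, read 2.72, 2.95 and 7.10 normalized counts in DMSO, 11.01, 11.6 and 15.4 in VHL-r, and 27.1, 25.9 and 10.7 in R4VPL3-1. Its difference from DMSO was 2.07 ± 0.42 (SE, limma adjusted p = 8.12e-04), although R4VPL3-1 replicate 3 lay at the VHL-r level. The gene passed the minimum mean only through these R4VPL3-1 libraries, with a mean of 8.45 in the other 6. The call was also made with no minimum mean. Part of its exons, 36.7% of 100-base windows, is repeated in other transcripts, so its count is uncertain.

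H2BC6 read 5.45, 9.84 and 8.11 normalized counts in DMSO, 10.0, 11.6 and 18.4 in VHL-r, and 21.5, 18.9 and 19.3 in R4VPL3-1, a difference from DMSO of 1.28 (limma adjusted p = 0.00821). H4C8, the single H4 gene high enough to test, read 9.08, 10.8 and 10.1 in DMSO, 11.01, 16.8 and 15.4 in VHL-r, and 24.3, 16.9 and 26.8 in R4VPL3-1, a difference of 1.08 (limma adjusted p = 0.0137). H2BC21 read 41.8, 26.6 and 38.5 in DMSO, 39.0, 29.4 and 50.2 in VHL-r, and 57.9, 72.6 and 52.5 in R4VPL3-1, a difference of 0.77 (limma adjusted p = 0.0191). In these 3 genes each R4VPL3-1 library lay above each DMSO library. H4C8 was not called by DESeq2, with no minimum mean, or when R4VPL3-1 replicate 1 or 3 was left out. That of H2BC21 was lost without DMSO replicate 2 or R4VPL3-1 replicate 2. H2BC4 fell just outside the threshold at 0.72 (limma adjusted p = 0.0507), and H2BC15 stood at 0.71 (limma adjusted p = 0.0746), both with groups that did not overlap.

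VHL-r alone was compared with DMSO to see what the recruiter did by itself. Of the 15 tested clustered genes, 2 were called higher and none lower, where 10.3% of all genes tested were called higher and 9.51% lower. The lower count was also 0 at an unadjusted p under 0.05, by edgeR and by DESeq2. The 2 were H2BC26 at 1.48 ± 0.38 (SE, limma adjusted p = 0.00719) and H2BC18 at 1.46 ± 0.42 (SE, limma adjusted p = 0.0163). Both compounds were compared with the same DMSO libraries. H2BC18 was not called by DESeq2, with no minimum mean, or when VHL-r replicate 3, DMSO replicate 1 or DMSO replicate 2 was left out. H2AC6, H2BC11 and H2AC25 stood at 0.17, 0.15 and -0.06, with 95% intervals of -0.21 to 0.54, -0.39 to 0.68 and -0.32 to 0.20.

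**Figure D3:**
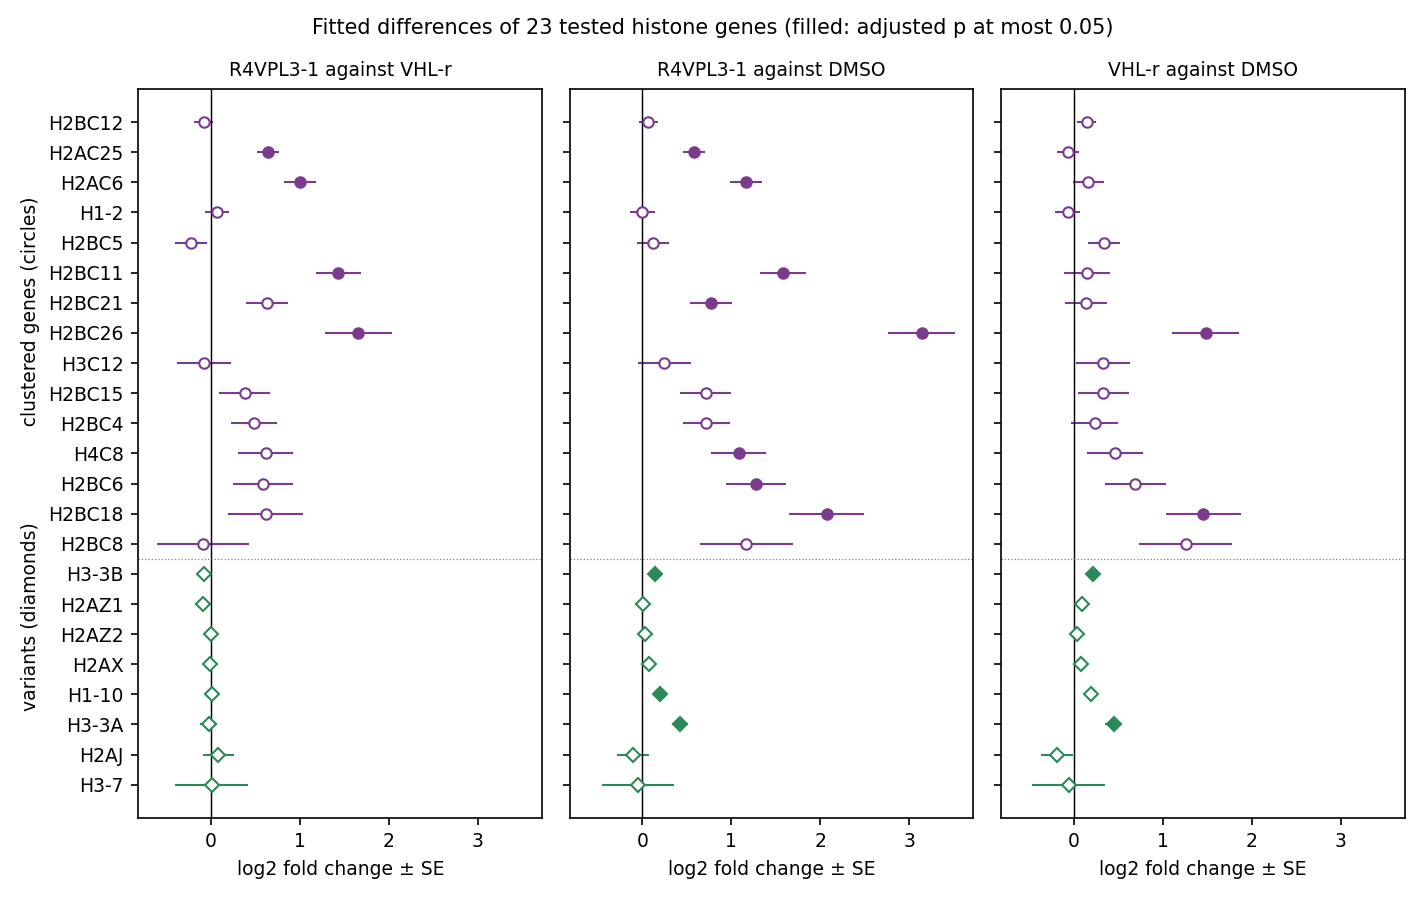
Fitted log2 fold changes with their standard errors for 23 tested histone genes in the 3 comparisons, with circles for clustered genes and diamonds for variants, each set ordered by mean. Filled symbols passed an adjusted p of 0.05, and they reach 3.14 among the clustered genes and lie between 0.14 and 0.45 among the variants.

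Summed over all 57 clustered genes, the libraries separated by treatment. DMSO libraries held 2.81, 3.02 and 3.07 of every 100000 reads, VHL-r libraries 3.61, 3.19 and 3.52, and R4VPL3-1 libraries 4.78, 4.34 and 4.46. Most of the excess of R4VPL3-1 over VHL-r came from H2AC6, H2AC25, H2BC11 and H2BC26, already called above. Their means went from 103.7, 116.2, 28.7 and 19.4 normalized counts in VHL-r to 212.2, 181.2, 82.7 and 66.2 in R4VPL3-1. The sum therefore does not show a shift shared by all 57. The 15 tested genes alone gave the same order. They held 2.37 to 2.70 in DMSO, 2.80 to 3.02 in VHL-r and 3.88 to 4.28 in R4VPL3-1. The 42 clustered genes too low to test held 0.430, 0.363 and 0.367 in DMSO. In VHL-r these 42 held 0.639, 0.387 and 0.498, and in R4VPL3-1 0.502, 0.455 and 0.458. In that part VHL-r overlapped both other groups, and R4VPL3-1 lay above DMSO. The highest single values among these 42 were 16.4 normalized counts for H4C16 and 15.9 for H3C10. H4C12, with 91.3% of its windows shared with other transcripts, was listed at 0 in the 3 DMSO libraries, a count that allows up to 3 reads in each, at 2.00, 2.10 and 6.15 in VHL-r and at 5.60, 2.98 and 4.28 in R4VPL3-1.

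Many H2A and H2B genes are arranged head to head. Among the members, 9 such pairs had starts 170 to 251 bases apart, and in 2 of them both genes could be tested. In the pair of H2AC25 and H2BC26, 230 bases apart, means went from 120.8, 116.2 and 181.2 normalized counts for H2AC25 to 6.90, 19.4 and 66.2 for H2BC26, in the order DMSO, VHL-r and R4VPL3-1. Both were called after R4VPL3-1 in each comparison, and after VHL-r H2BC26 was called and H2AC25 was not. In the pair of H2AC6 and H2BC4, 219 bases apart, the means of H2AC6 were 93.2, 103.7 and 212.2 and those of H2BC4 were 19.7, 23.6 and 33.4.

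The partner of H2BC11, H2AC11, was under the minimum mean, at 2.92, 7.17 and 6.55 normalized counts, while H2BC11 went from 26.1 and 28.7 to 82.7. In H2AC11 the libraries of both compounds lay above those of DMSO, at the closest 4.97 against 4.92. H2AC20, the partner of H2BC21, also stayed low, at 8.55, 8.19 and 7.57, while H2BC21 went from 35.6 and 39.5 to 61.0. H2BC12 had means of 178.1, 197.6 and 186.4, and its partner H2AC12 of 2.88, 2.71 and 3.56. Neither H2AC11, H2AC20 nor H2AC12 has a long form in the annotation. The difference between partners was not tested.

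**Figure D4:**
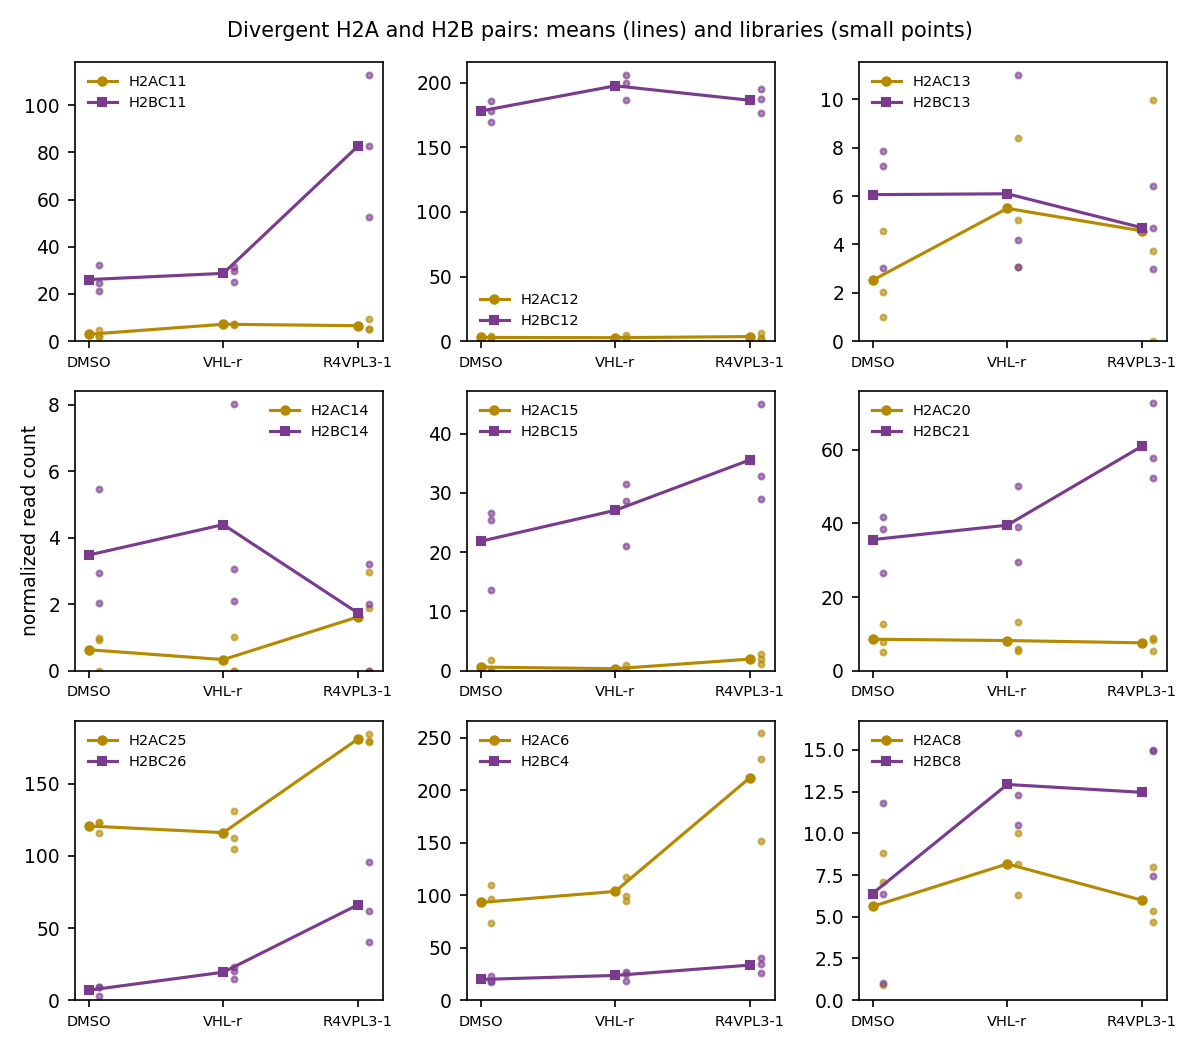
Normalized read counts of the 9 head-to-head H2A and H2B pairs, with lines through the group means, small points for libraries, and a vertical axis that starts at 0 and differs between panels. In the H2AC11 panel the mean of H2BC11 goes from 26.1 in DMSO to 82.7 in R4VPL3-1, and that of H2AC11 from 2.92 to 6.55.

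Among the variants the differences were small. Against DMSO, R4VPL3-1 raised 3 of 9 tested variants, H3-3A, H3-3B and H1-10, beside 13.1% of all genes tested. VHL-r raised 2 of 9 and lowered none, beside 10.3% and 9.51%, and none was lower at an unadjusted p under 0.05, by edgeR or by DESeq2. The medians over the 9 were 0.03 and 0.08 on the log2 scale.

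H3-3A and H3-3B encode the same protein, H3.3, which is placed into chromatin outside replication. H3-3A read 386.8, 363.0 and 387.4 normalized counts in DMSO, 564.4, 504.2 and 487.5 in VHL-r, and 597.6, 482.5 and 456.1 in R4VPL3-1. Both compounds lay above DMSO and overlapped each other. Its difference from DMSO was 0.42 ± 0.09 for R4VPL3-1 (SE, limma adjusted p = 0.0019) and 0.45 ± 0.09 for VHL-r (SE, limma adjusted p = 0.00144), with -0.03 between the compounds (95% interval -0.22 to 0.17). Of its 100-base windows, 15.6% occur in other transcripts.

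H3-3B, the most abundant histone gene by count, went from 17480, 17075 and 17066 normalized counts in DMSO to 19525, 19765 and 20587 in VHL-r and 18336, 18898 and 19616 in R4VPL3-1. Again neither compound overlapped DMSO. The differences were 0.21 for VHL-r (limma adjusted p = 5.31e-04) and 0.14 for R4VPL3-1 (limma adjusted p = 0.0144), the latter lost without DMSO replicate 2 or R4VPL3-1 replicate 3.

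H1-10, a variant of the linker histone, read 2710, 2546 and 2720 in DMSO, 3016, 3026 and 3069 in VHL-r, and 3081, 3505 and 2639 in R4VPL3-1. It was called in R4VPL3-1 at 0.20 (limma adjusted p = 0.0386) with overlapping groups, and not in VHL-r at 0.19 (limma adjusted p = 0.0568), where the groups did not overlap. The R4VPL3-1 call of H1-10 was lost in 9 of 19 alternative settings, among them each setting without a DMSO library and those without R4VPL3-1 replicate 1 or 2 or VHL-r replicate 2.

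H2AZ1, H2AZ2 and H2AX were not called in any comparison, and their intervals were narrow. Between the compounds the 95% intervals were -0.19 to 0.01 for H2AZ1, -0.09 to 0.08 for H2AZ2 and -0.12 to 0.09 for H2AX. H2AX, with a stem-loop and a long form, read between 4247 and 4952 normalized counts over the 9 libraries. H2AJ, an H2A variant, was low at 64.1 to 106.5. H2AB1 and H3-5 were under the minimum mean, at 0 to 1.02 and 0.98 to 5.25 normalized counts, and H3-7 at 6.96 to 23.3 was near it, with 27.7% of its windows shared with other transcripts. The histone variant CENPA, which marks centromeres and lies outside the name rule, was called higher than in DMSO, at 0.22 after R4VPL3-1 (limma adjusted p = 0.0398) and 0.26 after VHL-r (limma adjusted p = 0.0167). The R4VPL3-1 libraries overlapped DMSO, and that call was lost in 8 of 19 alternative settings, with DESeq2, with no minimum mean, with the 6 libraries compared fitted alone, and without DMSO replicate 2 or 3, VHL-r replicate 2, or R4VPL3-1 replicate 1 or 2. The VHL-r libraries lay above DMSO, and the call was lost in 3 settings, without DMSO replicate 2 or 3 or VHL-r replicate 2.

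**Figure D5:**
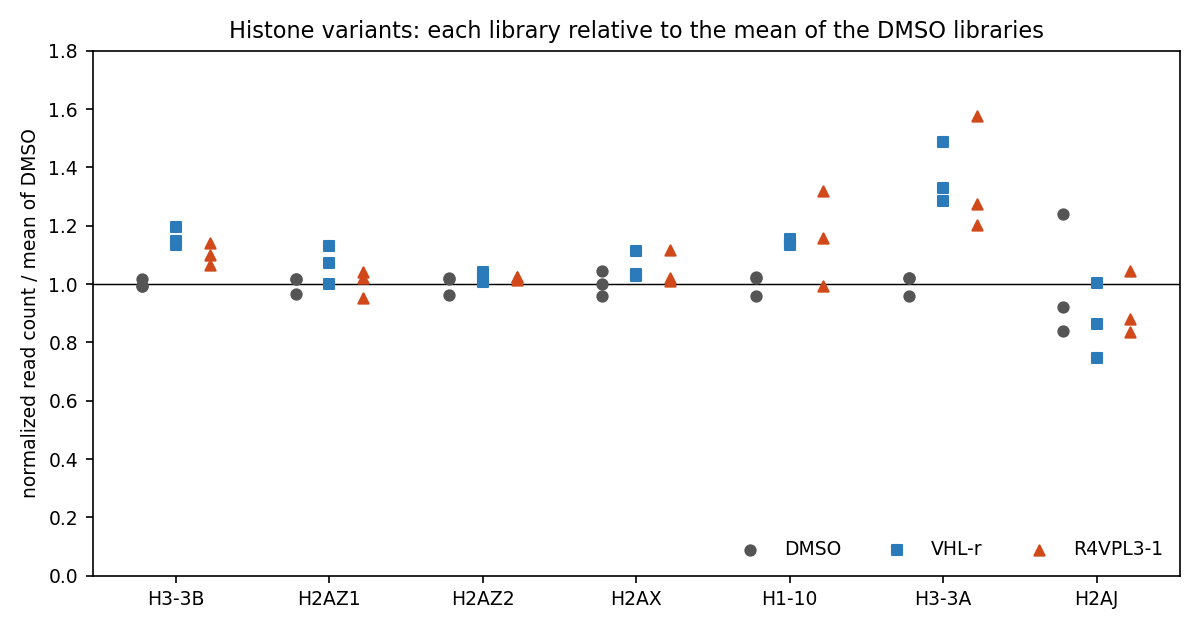
Normalized read count of each library divided by the mean of the DMSO libraries for 7 variants, ordered by level, with a line at 1. H3-3A and H3-3B lie above DMSO after both compounds, while the libraries of H2AZ2 stay together.

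The machinery that makes histone mRNA was looked at through a list of 33 genes for its transcription and 3′ end processing, of which 32 were tested. In R4VPL3-1 against VHL-r, 1 was called higher and 1 lower, beside 1.14% and 0.729% of all genes tested. ZNF473, a zinc finger protein of histone pre-mRNA processing, read 763.5, 720.6 and 708.8 normalized counts in VHL-r and 1078, 1034 and 893.9 in R4VPL3-1, a difference of 0.45 (limma adjusted p = 4.80e-04). CSTF2T, a form of a cleavage factor subunit, was lower at -0.26 (limma adjusted p = 0.0217).

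Against DMSO, R4VPL3-1 raised 4 of the 32 genes, HINFP, ZNF473, CASP8AP2 and SLBP, and lowered CSTF2T and LSM11. These shares are near or below the 13.1% higher and 11.8% lower of all genes tested. HINFP, a transcription factor of H4 genes, had the largest rise of the 4 at 0.61 (limma adjusted p = 1.40e-05), and SLBP stood at 0.18 (limma adjusted p = 0.0068). VHL-r raised HINFP by 0.35 and lowered CSTF2T, LSM11 and ZNF473, beside 10.3% higher and 9.51% lower of all genes. NPAT, the coactivator of clustered histone genes, was not called, at -0.07, -0.03 and 0.04 in R4VPL3-1 against VHL-r, R4VPL3-1 against DMSO and VHL-r against DMSO. The medians over the list were within 0.03 of 0 in the 3 comparisons.

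Of 27 histone chaperones, all tested, HJURP, the chaperone of CENPA, was called in R4VPL3-1 against VHL-r, at -0.23 (limma adjusted p = 0.0311), beside 0.729% of all genes called lower. Against DMSO, R4VPL3-1 raised 4, NASP, ASF1B, UBN2 and EP400, and lowered 4, among them DAXX, which places H3.3, at -0.32, and HJURP at -0.31. VHL-r raised NASP, ASF1B and UBN2 and lowered DAXX, at -0.24. Read against the 13.1% higher and 11.8% lower of all genes after R4VPL3-1, and 10.3% and 9.51% after VHL-r, the chaperones were called at near or below the background share.

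Genes of S phase were counted because clustered histone mRNA rises with replication. Of 31 listed genes 29 were tested, and none was called in R4VPL3-1 against VHL-r, beside 1.14% higher and 0.729% lower of all genes. There 0 were higher and 1 lower at an unadjusted p under 0.05 and edgeR and DESeq2 called 0. Their differences lay between -0.09 and 0.13. Against DMSO, R4VPL3-1 raised SLBP and CCNE1 and lowered GINS1, and VHL-r raised PCNA at 0.12 and lowered PRIM1 and RFC4. Each comparison with DMSO called 3 of the 29, a share below that of all genes, which was 13.1% higher and 11.8% lower for R4VPL3-1 and 10.3% and 9.51% for VHL-r.

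Another measure that could move with the clustered genes is RNA without a tail that passes the poly(A) selection. Of 25 listed RNAs that normally lack a poly(A) tail, 17 were listed at 0 in every library, and 2 were high enough to test, RN7SL1 and RMRP. The list summed to 96.3 to 179.0 normalized counts in DMSO, 120.9 to 208.1 in VHL-r and 110.2 to 204.5 in R4VPL3-1, so the groups overlapped. Neither of the 2 was called in any comparison. In R4VPL3-1 against VHL-r they stood at -1.65 and 0.05 on the log2 scale. The former passed an unadjusted limma p under 0.05 and was the lowest difference of all genes tested. Against DMSO they stood at -0.59 and 0.35 for R4VPL3-1, and at 0.31 and 1.06 for VHL-r. The part of such carry-over in the clustered genes was not tested.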

How the data were processed

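Poly(A)-selected, strand-specific RNA-seq libraries, 3 for each of DMSO, VHL-r and R4VPL3-1, were read as single reads of 100 bases. The authors aligned them to GRCh38 with STAR, counted reads per gene on the reverse strand with htseq-count, and deposited a normalized signal, each count divided by the DESeq2 (1.36.0) size factor of its library and rounded to 2 decimals. By default htseq-count leaves out reads that fall in several genes of 1 strand or map to several places, so near-identical histone genes can be undercounted. Reads were recovered by dividing by the value of 1 read, and 0 values above 0 missed a whole read by over 0.05. No value column was left unused.

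The main test was limma 3.58.1 (R 4.3.3, trend option) on log2(value + 1), for genes with a mean of at least 10, with all 9 libraries in a model of 3 groups and no replicate block. Benjamini-Hochberg adjustment ran over 15230 genes, and the threshold was 0.05. Intervals of 95% used the fitted spread. An exact permutation test of 3 against 3 cannot go below 0.10, so none was used. With no counts deposited, edgeR 4.0.16 and DESeq2 1.42.0 were run on recovered reads as alternatives, with the pseudocount, minimum mean, TMM scaling, robust fit, block, libraries compared and each library left out as the others. The fit was tested on simulated data.

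Stem-loops, exons and shared 100-base windows came from GENCODE 44, and promoters from RefSeq (GRCh38.p14). Named genes were the called members, those of highest level, fixed variants, the 4 in the study's gene table, and from the lists those called in R4VPL3-1 against VHL-r, the 6 of smallest adjusted p elsewhere, and SLBP, NPAT, CASP8AP2 and CENPA. Other tested members, H2BC4, H2BC15, H2BC8, H3C12 and H3-7, partners in pairs and low genes were picked with their values in view. The values of 1 tested variant are not reported here. The members and lists were chosen with earlier results of these data known.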

Additional observations from a re-analysis of the deposited data

How the results depend on the processing

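Of 107 gene results over the 3 comparisons, 49 were called, 31 of them in each of up to 19 settings, and no called difference changed sign. H2AC6, H2BC11 and H2AC25 were called in R4VPL3-1 against VHL-r under each setting that could test them. A minimum mean of 50 left few clustered genes to test, and the histone genes called were then 2 for R4VPL3-1 against VHL-r, 6 for R4VPL3-1 against DMSO and 2 for VHL-r against DMSO, with 2, 2 and 0 of them clustered, and clustered medians of 0.068, 0.12 and 0.15. With no minimum mean the clustered medians were 0.051 in R4VPL3-1 against VHL-r and 0.33 in R4VPL3-1 against DMSO, and with DESeq2, which also fitted all 57 genes, -0.038 and 0.59. DESeq2 called 1 clustered gene higher in VHL-r against DMSO, and with a library left out the count was 1 to 2. Over those settings R4VPL3-1 against DMSO gave 1 to 3 variants higher and a clustered median of 0.75 to 0.90. Same-numbered libraries correlated weakly, at -0.006 to 0.121 with 2 of 9 pairs over 0.1. Of the 9 libraries, 4 correlated best with their own number in both other groups, so a weak pairing is not excluded. With a replicate block, 9 clustered genes in place of 8 were called higher in R4VPL3-1 against DMSO, and 3 variants in place of 2 in VHL-r against DMSO.

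Differences near 0 changed sign. H1-2 in R4VPL3-1 against DMSO was 0.0002 with a pseudocount of 5, 0.0073 with TMM scaling, 0.0204 by edgeR and 0.0123 by DESeq2, and H3-7 in R4VPL3-1 against VHL-r was -0.0012 with a pseudocount of 0.1. With 1 library left out, ranges in R4VPL3-1 against VHL-r were -0.14 to 0.0527 for H3-3A, -0.0908 to 0.11 for H1-10, -0.0403 to 0.22 for H1-2, -0.0183 to 0.0068 for H2AZ2, -0.0569 to 0.0260 for H2AX, -0.0213 to 0.19 for H2AJ, -0.31 to 0.23 for H3C12, -0.20 to 0.40 for H3-7, -0.24 to 0.21 for H2BC8, -0.0911 to 0.0126 for CENPA and -0.13 to 0.0045 for NPAT. In R4VPL3-1 against DMSO they were -0.11 to 0.15 for H1-2, -0.0207 to 0.0445 for H2AZ1, -0.22 to 0.0612 for H2AJ, -0.37 to 0.34 for H3-7 and -0.0738 to 0.0130 for NPAT. In VHL-r against DMSO they were -0.15 to 0.0076 for H2AC25, -0.0526 to 0.33 for H2BC21, -0.37 to 0.33 for H3-7, -0.10 to 0.0376 for CASP8AP2 and -0.0341 to 0.10 for NPAT.

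Among the list genes, calls against VHL-r were lost for CSTF2T when R4VPL3-1 replicate 1, VHL-r replicate 1 or VHL-r replicate 2 was left out, and for HJURP with no minimum mean or when R4VPL3-1 replicate 1 or 3, VHL-r replicate 1 or VHL-r replicate 2 was. Calls of R4VPL3-1 against DMSO were lost in 1 or more settings for ZNF473, SLBP, CASP8AP2, EP400 and CENPA, and of VHL-r against DMSO for ZNF473, PRIM1, RFC4, PCNA and CENPA. The causes were not tested. Depth limits the 42 clustered genes under a mean of 10, which the main test left out and whose single changes are not judged here.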
